A study of Mus musculus with 8 samples.

Results

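The immediate early genes Fos, Fosb, Jun, Junb, Egr1, Egr2, Atf3, Ier2, Nr4a1 and Dusp1 were followed across the RNA-seq data of stromal populations sorted from mouse bone marrow. They were taken by symbol, and all 10 were found among the 49315 Ensembl genes of the deposited count tables. Each of the 7 sorted clusters and the unsorted input of bone marrow cells gave 1 library, 8 in all, so that nothing was replicated and no test between populations was possible. The mice were wild-type animals, C57BL/6J and 6 weeks old according to the labels and C57BL/6JJcl in the study's methods, and received no treatment that the labels name.

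The clusters were sorted by flow cytometry, according to the study's methods, after the bones had been crushed and washed and the remaining fragments digested with collagenase, from cells negative for the lineage antigens CD31, CD45 and Ter119. The methods also name antibodies to Sca-1, PDGFR-α and CD24 for enriching cells of this fraction. In the paper, the clusters were defined by single-cell RNA-seq of cells positive for Sca-1 and PDGFR-α. Cluster 1 was gated as CD24- CD39+ Sca-1+, cluster 2 as Ly-6C- CD24- CD39-, cluster 3 as Ly-6C+ CD24+ CD39/54- and cluster 4 as Ly-6C- CD24- CD54+. Cluster 5 was gated as CD54+ CD24/Ly-6C- CD121b-, cluster 6 as CD24+ Sca-1- CD39- and cluster 7 as CD54- Sca-1+ CD24/Ly-6C-. The labels of all 8 libraries describe RNA extracted from crushed bone marrow and do not mention the sort. Levels in marrow that had not been dissociated were not measured. In bulk libraries such as these, fewer cells of a type and less RNA per cell cannot be told apart.

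Immediate early genes are transcribed within minutes of a stimulus such as a growth factor, a cytokine or mechanical or heat stress, by factors that are already present in the cell and without new protein synthesis. Serum response factor and its partners, together with CREB and related factors, switch them on downstream of MAP kinases, calcium and cAMP, and many of their products are themselves transcription factors or feedback inhibitors of the same kinases. In the bone marrow stroma, AP-1 and Egr factors are known as regulators of osteoblast and osteoclast development.

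Promoters are shown first, because CREB-type sites are one route by which these genes are switched on. The 300 bases from 250 before to 50 after the RefSeq start site (GRCm38.p6) were at hand for 8 of the 10 genes, and those of Egr1 and Ier2 were not used here. The core TGACG of the cAMP response element (CRE) was found on either strand in the windows of 7 of these 8 genes, Fos, Fosb, Junb, Egr2, Atf3, Nr4a1 and Dusp1, and not in that of Jun. Across all 27025 genes with a window, 23% held it, and so did 18 of 30 other immediate early genes with a window. The 4 stretches below end where the deposited gene model begins and are written 5′ to 3′ on the strand of the gene, with each TGACG, or CGTCA where the core is on the other strand, in capitals. They are Fos at chr12:85473640-85473889 (plus strand) and Fosb at chr7:19310052-19310295 (minus strand), AP-1 subunits with unlike patterns of levels, and Nr4a1 at chr15:101266596-101266845 (plus strand) and Dusp1 at chr17:26508520-26508722 (minus strand), with the most copies of the core.
Fos: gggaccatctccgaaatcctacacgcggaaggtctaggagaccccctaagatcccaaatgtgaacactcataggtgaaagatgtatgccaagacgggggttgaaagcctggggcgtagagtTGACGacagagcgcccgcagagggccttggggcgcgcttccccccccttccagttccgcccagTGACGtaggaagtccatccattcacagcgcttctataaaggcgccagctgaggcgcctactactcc
Fosb: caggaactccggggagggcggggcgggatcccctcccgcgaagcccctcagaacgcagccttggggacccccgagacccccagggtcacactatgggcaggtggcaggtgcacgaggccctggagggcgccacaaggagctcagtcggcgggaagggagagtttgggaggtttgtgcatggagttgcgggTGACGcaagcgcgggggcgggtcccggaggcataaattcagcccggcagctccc
Nr4a1: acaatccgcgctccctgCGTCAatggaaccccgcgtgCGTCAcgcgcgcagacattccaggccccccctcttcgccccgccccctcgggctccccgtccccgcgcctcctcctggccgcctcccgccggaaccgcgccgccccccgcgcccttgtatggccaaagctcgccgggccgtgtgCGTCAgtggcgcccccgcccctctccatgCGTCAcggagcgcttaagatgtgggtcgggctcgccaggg
Dusp1: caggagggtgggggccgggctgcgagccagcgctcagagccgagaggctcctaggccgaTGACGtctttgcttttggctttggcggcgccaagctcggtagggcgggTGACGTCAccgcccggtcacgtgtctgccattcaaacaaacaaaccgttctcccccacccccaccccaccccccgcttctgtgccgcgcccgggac
The stretch of Fos held 2 copies, that of Fosb 1, that of Nr4a1 4 and that of Dusp1 3. Among them, Dusp1 alone held the full CRE, TGACG followed by TCA, which contains the core on both strands. It lies 143 bases before the RefSeq start site of Dusp1. The stretch shown ends 47 bases before that site, where the deposited gene model begins. The full CRE was present in 1 of the 8 members with a window and in 2.03% of all genes. The CArG box, the site of serum response factor, was found in the windows of Egr2 alone, against 1.81% of all genes, and Egr2 has 5 windows in the table. The letters GCGNGGGCG, an Egr site, were found in Fosb and Nr4a1 and in 6.27% of genes. No member held the AP-1 site TGANTCA in its window, against 8.97% of genes. A match is only a match of letters, and enhancers further away were not searched. Whether any of these sites bears on the levels in these libraries was not tested.

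Levels are given as RPKM, the reads of a gene per kilobase of its exons, scaled to the reads counted on all genes of the library. The reads counted on genes numbered 24205863, 25349917, 27102715, 32549319, 12833648, 31669132 and 33238133 for clusters 1 to 7, and 20162876 for input. Each member had from 495 reads (Egr2 in cluster 5) to 203579 reads (Fos in cluster 7). Averaged over its upper and lower side, the exact 95% Poisson interval therefore reached at most 8.91% and at least 0.435% from a level. These intervals cover counting error only, since duplicates from PCR were not told apart from separate molecules and no biological replicate was available.

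The libraries differed in composition, and this bears on every level scaled by the total count. Lars2, mmu-mir-689-2 and Rn18s-rs5 together took 34.8% of the reads in cluster 5 and 10.4% in cluster 2, against 1.91%, 1.58%, 1.01%, 1.41% and 0.274% in clusters 1, 3, 4, 6 and 7 and 0.188% in the input. Haemoglobin genes took 5.21% in cluster 5 and at most 1.10% in any other library. Levels are therefore also given after scaling with edgeR's TMM (trimmed mean of M values) factors, and as ranks and ratios within a library, which no scaling changes. The TMM factors of clusters 5 and 6 were 0.74 and 0.776, that of the input was 1.6, and those of the other libraries lay between 0.975 and 1.1.

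Most of the 10 genes were abundant, Egr2 and Fosb being the lowest of them. Together the 10 took 1.85%, 0.853%, 1.14%, 1.67%, 0.59%, 0.767% and 1.87% of the counted reads of clusters 1 to 7, and 1.7% of those of the input. Fos had the highest RPKM of the 10 in each library and ranked between position 12 (input) and 50 (cluster 5) among all genes of a library. Egr2 had the lowest RPKM of the 10 in each library, at position 1282 in cluster 7 and 2662 in cluster 2.

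Fos (ENSMUSG00000021250, GRCm38 chr12:85473890-85477273, plus strand, 2352 exonic bases) encodes a subunit of the transcription factor AP-1, in which it binds DNA as a dimer with a Jun protein. Its level was 2591, 1132, 1371, 2220.4, 654, 776 and 2604 RPKM in clusters 1 to 7, and 2351 RPKM for input. Clusters 7 and 1 were the highest of the sorted libraries and could not be separated by counting error (ratio 1.00, 95% interval 0.998 to 1.01), and the other neighbours in the order of levels differed beyond it. The ratio of the highest to the lowest sorted library was 3.98, and 2.84 after TMM scaling, with the same order of the 7 libraries under both.

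Fosb (ENSMUSG00000003545, GRCm38 chr7:19302696-19310051, minus strand, 6243 exonic bases) encodes a second Fos family subunit. It was at 135, 138, 55.8, 120.1, 75.4, 77.6 and 70.9 RPKM in clusters 1 to 7, and 35.7 RPKM for input. Its order was unlike that of Fos: cluster 2, among the low libraries for Fos, was the highest for Fosb, and cluster 7, the highest for Fos, stood near the bottom. The input was lower than each of the sorted libraries.

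Jun (ENSMUSG00000052684, GRCm38 chr4:95049034-95052222, minus strand, 3189 exonic bases) encodes the AP-1 subunit that pairs with Fos proteins. Its level was 656, 261, 396, 521, 222, 242 and 559 RPKM in clusters 1 to 7, and 316 RPKM for input. Clusters 1, 7 and 4 were the highest. The highest was 2.96 times the lowest, and 2.27 times after TMM scaling, which made cluster 2 the lowest in place of cluster 5. Junb (ENSMUSG00000052837, GRCm38 chr8:84974484-84978718, minus strand, 2301 exonic bases) encodes another Jun family subunit with weaker transactivation than Jun. Its level was 793, 331, 621, 874, 260.5, 382 and 968 RPKM in clusters 1 to 7, and 779 RPKM for input. Clusters 7, 4 and 1 were again above the other sorted libraries, with a highest-to-lowest ratio of 3.72 (2.81 with TMM). Junb overlaps Prdx2 on the other strand, which had at most 6703 reads, and Jun overlaps BC042782, with at most 164. Whether reads were counted by strand is not given in the sources used here, so reads of these neighbours cannot be told apart in the shared bases.

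Atf3 (ENSMUSG00000026628, GRCm38 chr1:191170296-191218039, minus strand, 2154 exonic bases), a stress-induced bZIP factor of the ATF family that can pair with Jun proteins, stood at 462, 169, 489, 376, 116, 223 and 349.6 RPKM in clusters 1 to 7, and 459 RPKM for input. It was the only one of the 10 with its highest sorted level in cluster 3, under both scalings. Its ratio of the highest to the lowest sorted library, 4.22, was the largest of the 10 with total counts, and it was 3.17 with TMM.

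Egr1 (ENSMUSG00000038418, 4484 exonic bases) encodes a zinc finger factor induced by growth factors and mechanical load. Its level was 679, 283, 432, 610.3, 248, 353 and 745 RPKM in clusters 1 to 7, and 779 RPKM for input. Clusters 7, 1 and 4 were the highest sorted libraries, in the same order as for Fos, and the input was above them. With TMM the order of these libraries became 7, 4 and 1 (720, 626 and 615 RPKM), and the input, at 488 RPKM, fell below all 3. Egr2 (ENSMUSG00000037868, GRCm38 chr10:67535475-67542188, plus strand, 3398 exonic bases), its paralog with a known role in Schwann cells and in osteoclast precursors, was far lower, at 35.9, 16.3, 20.7, 20.3, 11.4, 26.1 and 39.9 RPKM in clusters 1 to 7, and 35.0 RPKM for input. Clusters 7 and 1 were the highest for Egr2 as well with total counts, whereas TMM placed cluster 6 (33.6 RPKM) between cluster 7 (38.6) and cluster 1 (32.5). Cluster 4 was not raised for Egr2, and clusters 3 and 4 were within counting error of each other (ratio 1.02, interval 0.961 to 1.09).

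Nr4a1 (ENSMUSG00000023034, GRCm38 chr15:101266846-101274792, plus strand, 2474 exonic bases) encodes an orphan nuclear receptor. Its level was 545, 176, 236, 644, 195, 177 and 662 RPKM in clusters 1 to 7, and 423 RPKM for input. Its levels fell into a high set of clusters 7, 4 and 1 and a low set of the other 4 sorted libraries, with the input between them. With TMM both sets remained, but the input, at 265 RPKM, stood beside cluster 5, at 264, the highest of the low set. Clusters 6 and 2 were within counting error of each other (ratio 1.00, interval 0.980 to 1.03). The ratio of the highest to the lowest sorted library was 3.75 with total counts and 3.72 with TMM.

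Ier2 (ENSMUSG00000053560, GRCm38 chr8:84661331-84662852, minus strand, 1522 exonic bases), a nuclear protein without a known DNA-binding domain, stood at 466, 390.2, 432, 494, 185, 297 and 396 RPKM in clusters 1 to 7, and 403 RPKM for input. Clusters 7 and 2 were within counting error of each other (ratio 1.02, interval 0.994 to 1.04). Its ratio of 2.66 between the highest and the lowest sorted library became 2.02 with TMM, then the smallest of the 10. Dusp1 (ENSMUSG00000024190, GRCm38 chr17:26505590-26508519, minus strand, 2697 exonic bases), the nuclear phosphatase that inactivates p38, JNK and ERK kinases and so ends the response, stood at 537, 256, 316, 399.6, 154, 248 and 610.4 RPKM in clusters 1 to 7, and 812 RPKM for input. It was highest in clusters 7 and 1 among the sorted libraries and higher still in the input, although TMM scaling placed the input, at 509 RPKM, below cluster 7, at 589.8.

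**Figure D1:**
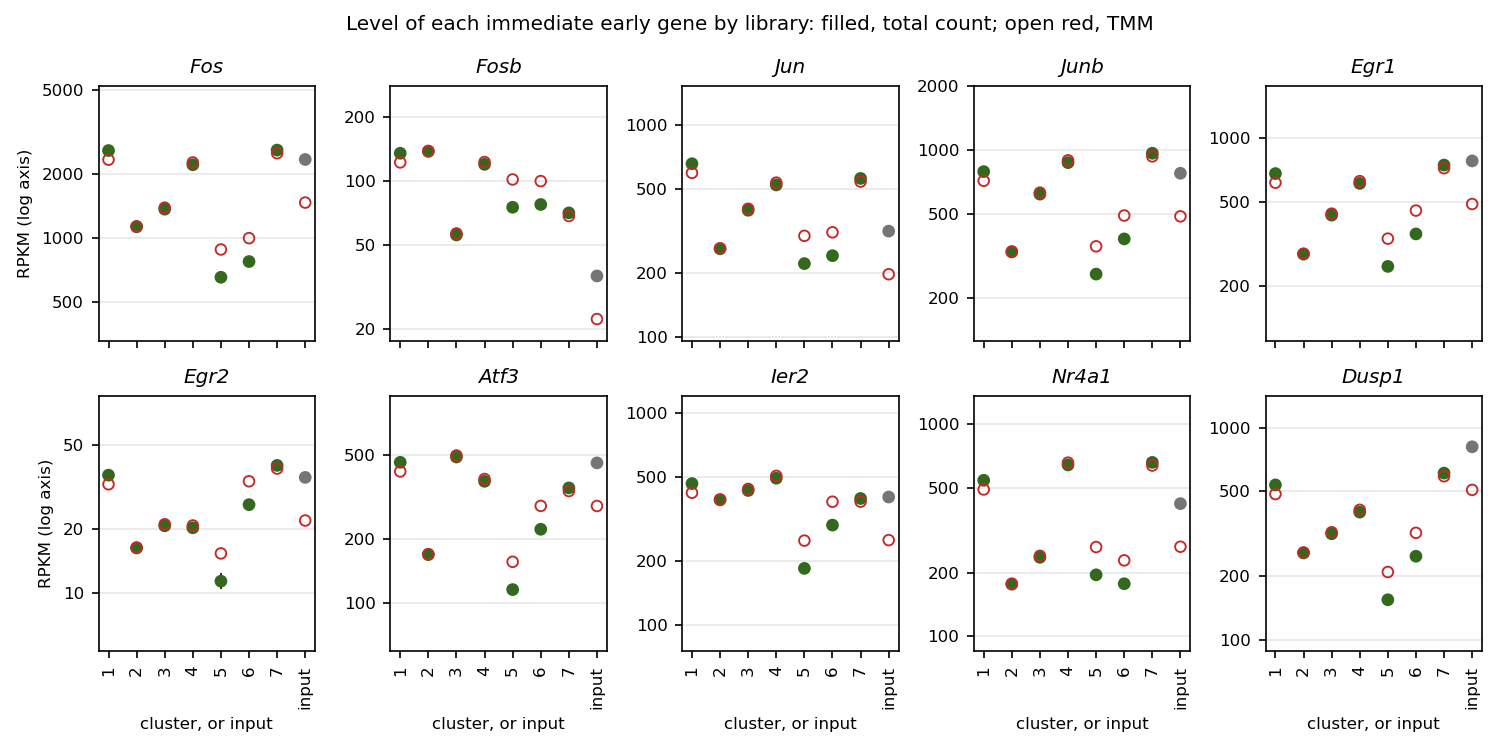
RPKM of each of the 10 genes (log axis, 1 panel per gene) in the 7 cluster libraries and the input, with exact 95% Poisson intervals, mostly smaller than the symbols; filled points are scaled by total count and open red points by TMM. Fos, Jun, Junb, Egr1, Nr4a1 and Dusp1 have their 3 highest sorted levels in clusters 1, 4 and 7, whereas Fosb is highest in cluster 2.

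Clusters 1, 4 and 7 were the 3 highest sorted libraries for 6 of the 10 genes, Fos, Jun, Junb, Egr1, Nr4a1 and Dusp1. This held with total counts (14.5% of the 12360 genes with RPKM above 2 in a sorted library), with TMM (6.9% of 12682 genes) and with DESeq2 size factors (5.56% of 12719 genes). The set of 3 libraries was chosen after the levels were seen. The highest sorted library was cluster 7 for 6 of the 10, Fos, Junb, Egr1, Egr2, Nr4a1 and Dusp1, against 25.3% of all genes. With TMM, it was cluster 7 for 5 of the 10 against 17.1%, Nr4a1 having moved to cluster 4. The lowest was cluster 5 for 8 of the 10, against 46.2% of all genes. With TMM it was cluster 5 for 5 of the 10 against 26.3% and cluster 2 for 4, namely Jun, Junb, Egr1 and Nr4a1, against 15.6%.

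Ranks by RPKM within a library gave the same upper end and another lower end. The rank was closest to the top in cluster 7 for the same 6 genes that peaked there with total counts, against 15% of the 12360 genes. Among the sorted libraries, it was deepest in cluster 2 for 7 of the 10, Jun, Junb, Egr1, Egr2, Atf3, Nr4a1 and Dusp1, against 17.7% of genes, and in cluster 5 for Fos and Ier2, a share near the 22.3% of genes. Junb, for example, ranked 50, 148, 75, 50, 108, 87 and 38 for clusters 1 to 7. Nr4a1 ranked 80, 278, 199, 71, 151, 186 and 61. The median rank of the 10 was 80.5, 198.5, 112, 95.5, 154.5, 131.5 and 72.5, so that cluster 7 had the ranks closest to the top and cluster 2 the deepest.

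**Figure D2:**
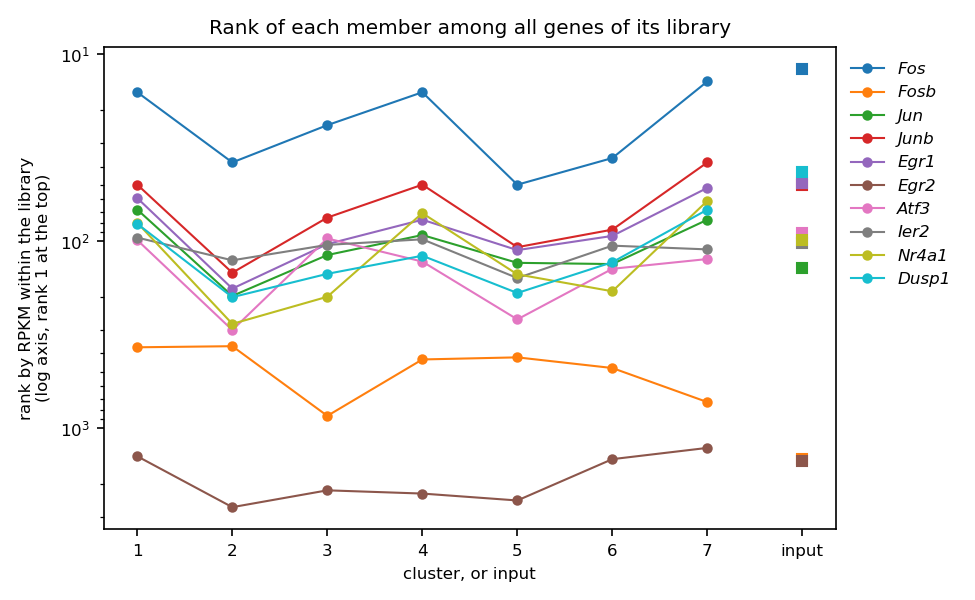
Rank of each of the 10 genes by RPKM among all genes of its library (log axis, rank 1 at the top), with circles for clusters 1 to 7, joined only to follow a gene, and squares for the input. Most lines dip in cluster 2, where 7 of the 10 genes have their deepest rank of the sorted libraries, while Fosb has its deepest sorted rank, 864, in cluster 3.

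To set each library against the others, the difference of log2(RPKM + 1) from the median of the other 6 sorted libraries was taken, and a difference past 2-fold was counted. With the total count, 3 of the 10 genes were past 2-fold higher in cluster 1 (Fos, Jun and Nr4a1), against 3.75% of the 19088 genes with RPKM above 2 in any library. In cluster 7, 3 were higher (Fos, Nr4a1 and Dusp1), against 4.48% of genes. In cluster 4, Nr4a1 alone was, against 3.16%. None of the 10 was higher in clusters 2, 3, 5 and 6, where 5.63%, 2.66%, 3.13% and 3.05% of genes were.

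In the other direction, 7 of the 10 were past 2-fold lower in cluster 5 (Fos, Jun, Junb, Egr1, Atf3, Ier2 and Dusp1), against 8.54% of genes. Cluster 2 had 3 lower (Junb, Atf3 and Nr4a1), against 2.94%, and cluster 6 had 2 (Fos and Nr4a1), against 6.75%. None was lower in clusters 1, 3, 4 and 7, where 1.03%, 2.03%, 0.912% and 1.66% of genes were. The median difference of the 10 was 0.81, -0.71, -0.06, 0.64, -1.10, -0.62 and 0.93 for clusters 1 to 7. Over all genes it was 0.12, 0.00, 0.01, 0.00, -0.23, -0.07 and 0.04 in the same order.

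After TMM scaling the median difference of the 10 shrank in clusters 1, 4, 5, 6 and 7 and held its size in cluster 2. None of the 10 was past 2-fold higher in cluster 1 (2.61% of 16268 genes), and Nr4a1 alone was in cluster 4 (3.2%) and in cluster 7 (3.63%). In cluster 5, Fos and Atf3 were past 2-fold lower (3.43% of genes), and none of the 10 was in cluster 6 (5.33%). Cluster 2 kept Junb, Atf3 and Nr4a1 past 2-fold lower (3.91%), and 2 members were with DESeq2 size factors (3.64%). The medians of the 10 with TMM were 0.53, -0.73, -0.19, 0.43, -0.71, -0.26 and 0.72 in clusters 1 to 7, with all genes between -0.05 and 0.00. When the 3 abundant loci, haemoglobin and mitochondrial genes were left out of the total, none of the 10 was past 2-fold lower in cluster 5 (1.37% of 19586 genes), where the median of the 10 was -0.35 and that of all genes 0.09. In cluster 2, 1 of the 10 was (2.81%), with a median of -0.56 against 0.00 for all genes.

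**Figure D3:**
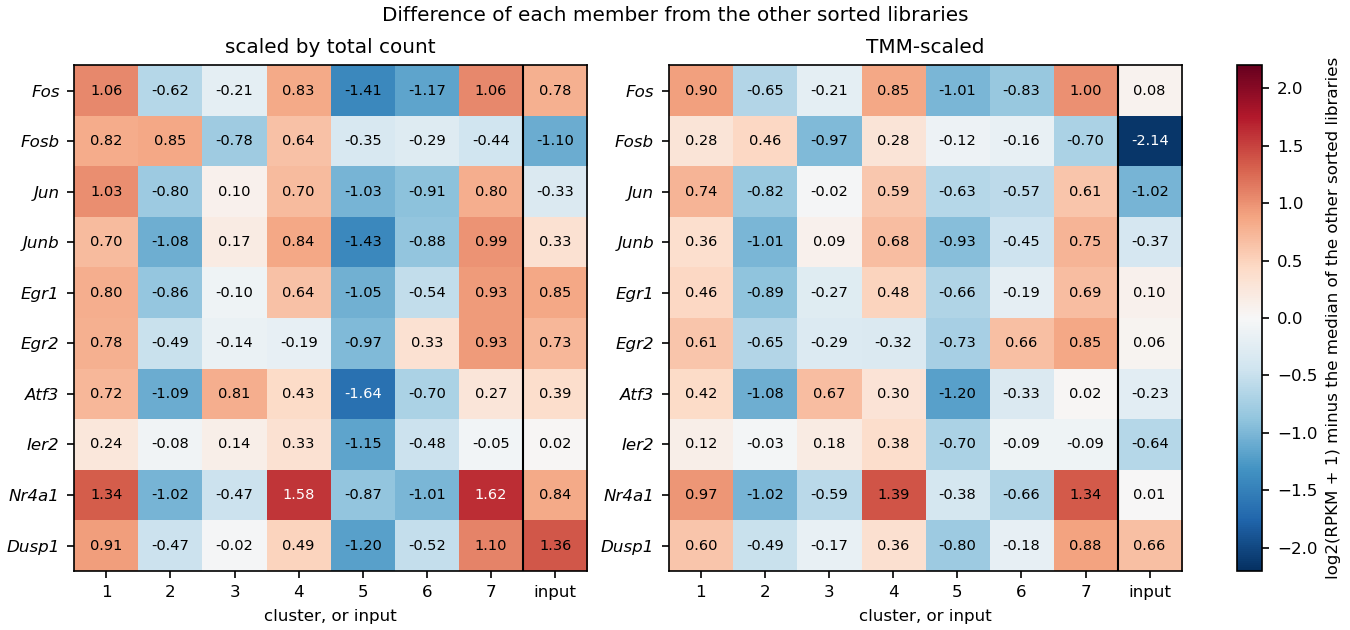
Difference of log2(RPKM + 1) of each gene (rows) in each library (columns) from the median of the other 6 sorted libraries, or of all 7 for the input, scaled by total count (left) and by TMM (right), with red for higher and blue for lower. Nr4a1 in clusters 4 and 7 is past 2-fold higher in both panels (1.58 and 1.62 on the left, 1.39 and 1.34 on the right), while the blue of cluster 5 is paler on the right.

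The input library, set against the median of all 7 sorted libraries, had Dusp1 past 2-fold higher (difference 1.36) and Fosb past 2-fold lower (difference -1.10), against 43% and 2.89% of all genes. The median of the 10 was 0.56 and that of all genes 0.78. With TMM none was past 2-fold higher, against 24.6% of genes. Fosb (-2.14) and Jun (-1.02) were past 2-fold lower, against 9.68%, and the median of the 10 was -0.11. The range over the sorted libraries was wide for the members and for genes at large. The ratio of RPKM + 1 between the highest and the lowest sorted library was above 2 for 10 of 10 members, against 70.6% of genes, and with TMM for 10 of 10 against 56.8%. The median log2 range of the 10 was 1.81, and that of all genes 1.26, and with TMM they were 1.41 and 1.10. Past 4-fold there was 1 of the 10, against 15.7% of genes, and with TMM 0 against 14.7%.

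The members were next compared with each other within a library, where scaling has no effect. The RPKM of Fosb was 5.23% of that of Fos in cluster 1 (exact 95% interval 5.15% to 5.30%), 12.2% in cluster 2 (12.0% to 12.4%), 4.07% in cluster 3 (3.98% to 4.16%) and 5.41% in cluster 4 (5.34% to 5.48%). It was 11.5% in cluster 5 (11.2% to 11.9%), 10.003% in cluster 6 (9.83% to 10.2%), 2.72% in cluster 7 (2.68% to 2.77%) and 1.52% in the input (1.47% to 1.57%). Clusters 2, 5 and 6, the low libraries for Fos, thus had the highest share of Fosb, and the input and cluster 7 the lowest. The ratio of the highest to the lowest sorted library was 4.49 for Fosb to Fos, 3.68 for Egr2 to Fos, 2.66 for Atf3 to Fos and 2.51 for Ier2 to Fos. For Jun, Junb, Egr1, Nr4a1 and Dusp1 to Fos it lay between 1.58 and 1.92.

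**Figure D4:**
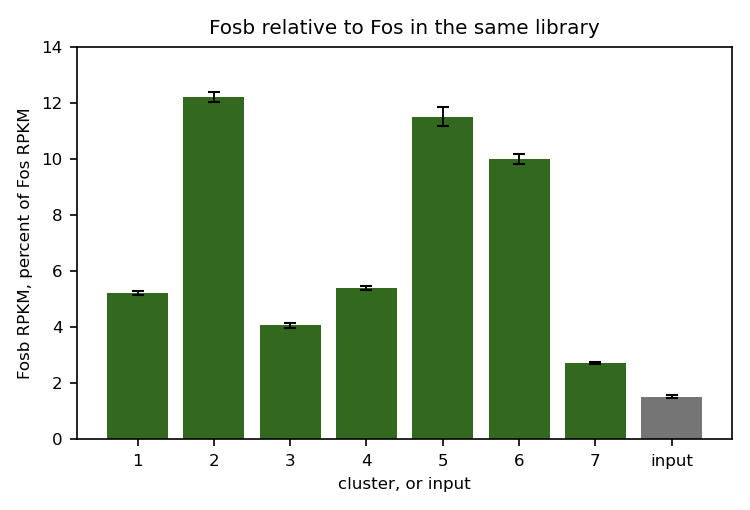
RPKM of Fosb as a percentage of the RPKM of Fos in the same library, for clusters 1 to 7 and the input, as bars from 0 with exact 95% intervals for counting error. The bars of clusters 2, 5 and 6 stand above all others, which reach at most 5.41%.

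Across the 7 sorted libraries, Pearson's r of log2(RPKM + 1) between 2 members had a median of 0.81 over all 45 pairs, against 0.28 over all pairs of the 7461 genes with a symbol, at least 50 counts, RPKM above 2 and a range past 2-fold. Of those pairs of genes, 7.95% were above the median of the members. Fosb stood apart from the others and was set aside after the values were seen: between 2 of the other 9 genes r had a median of 0.85 over 36 pairs, from 0.58 (Egr2 and Ier2) to 0.98 (Junb and Egr1). With Fosb, r lay between -0.05 (Atf3) and 0.36 (Ier2) over 9 pairs. With TMM the median over the 45 pairs was 0.68, against 0.03 over the pairs of 5772 genes, of which 11.4% were above it. The 36 pairs without Fosb had a median of 0.77 and a lowest value of 0.31 with TMM, and of 0.74 and 0.19 with DESeq2 size factors. The 9 pairs with Fosb lay between -0.47 and 0.01 with TMM. These points share their libraries, and so also their depth and composition, and 7 points are few.

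The genes with a pattern most like the mean of the 10 standardised members were sought among 7451 genes, by Pearson's r over the 7 sorted libraries. They were Zfp46 (r = 0.995), Klhl26 (0.991), Hpcal1 (0.989), Sumf1 (0.989), Tbl1x (0.988), Mob3c (0.988), Mib2 (0.987), Slc24a6 (0.986), Axin1 (0.985) and Elf2 (0.982). Of the 7451 genes, 1.07% had r above 0.95. The list rested on the scaling: with TMM, Slc24a6 alone remained among the first 10, led by Col4a5 (r = 0.967), Txnip (0.965) and Ecm2 (0.965). For single members, the closest other gene was Eno2 for Fos (r = 0.993), Top1mt for Fosb (0.939), Ssbp2 for Jun (0.994), Pgrmc1 for Junb (0.998) and Il6st for Egr1 (0.998). It was 2610301G19Rik for Egr2 (0.997), Olfm1 for Atf3 (0.996), Zfp428 for Ier2 (0.993), Nrp1 for Nr4a1 (0.993) and Slc24a6 for Dusp1 (0.991). Each was picked as the highest r of many genes over 7 libraries, with total counts alone. Several stood at low levels in the sorted libraries, such as Eno2 (0.77 to 3.17 RPKM), Top1mt (1.30 to 4.08) and Zfp428 (0.66 to 2.70).

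Other genes of the same response were followed as lists, with the same 2-fold rule and the same percentages of all genes per library. The lists overlap, so that a call such as that of Zfp36 can count in 2 of them. Shared with another list were 6 of the 40 other immediate early genes, 2 of the 16 feedback regulators, 5 of the 18 bZIP partners and 1 of the 21 upstream kinases and factors. Among 40 other immediate early genes, 7 were past 2-fold higher in cluster 1, 11 in cluster 4 and 9 in cluster 7, whereas 13 were lower in cluster 5, 8 in cluster 6 and 6 in cluster 2. The other calls in sorted libraries were Arc, higher in clusters 2 and 6, Ctgf, lower in cluster 1, and Cebpd, lower in cluster 3. Their median difference was 0.53, -0.28, -0.10, 0.58, -0.71, -0.70 and 0.26 for clusters 1 to 7. With TMM, 2 were higher in cluster 1, 8 in cluster 4 and 5 in cluster 7, and 2 were lower in cluster 5, 6 in cluster 6 and 5 in cluster 2, while the other calls stayed and Cyr61 was higher in clusters 3 and 6 as well. The number higher in cluster 4 was 4 with DESeq2 size factors (3.06% of all genes) and 3 without the cluster 5 library (2.7%). It was 1 when the mitochondrial, haemoglobin and 3 abundant loci were left out of the total (2.18%). Without the cluster 5 library, 12 were lower in cluster 2 (4.27%) and 14 in cluster 6 (7.93%). In the input, 2 of the 40 were higher and 7 lower with total counts, and 0 were higher and 17 lower with TMM, against 24.6% and 9.68% of all genes. Their median in the input was -0.18 with total counts, where that of all genes was 0.78, and -0.81 with TMM, where it was -0.02. Ier5l ranged from 0.953 RPKM in cluster 6 to 19.1 in cluster 1, and Nr4a3, a paralog of Nr4a1, from 2.33 in cluster 6 to 23.4 in cluster 4. Arc, known as an effector of synaptic plasticity, went another way, with 59.7 RPKM in cluster 6, 50.4 in cluster 2 and 7.93 in cluster 5.

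Of 16 feedback regulators, phosphatases and other inhibitors that end the response, few were past 2-fold in a sorted library: Zfp36, which speeds the decay of early mRNAs, was higher in clusters 1, 4 and 7, and Zfp36l1 in cluster 4, while Dusp5 was higher in cluster 2 and Dusp10 in cluster 3. Dusp10, Ier3 and Tob2 were lower in clusters 2, 5 and 6, in that order. With TMM, Zfp36 was no longer past 2-fold in cluster 1 and none of the list was lower in a sorted library, while Dusp5 was higher in cluster 6 as well. In the input, Zfp36 was higher and Dusp2, Dusp5, Dusp7 and Dusp8 were lower with total counts, against 43% and 2.89% of all genes. With TMM, 0 were higher and 7 of the 16 lower, against 24.6% and 9.68%. The medians of the list were 0.28, -0.26, -0.10, -0.03, -0.60, -0.18 and 0.30 for clusters 1 to 7. Among the sorted libraries, Dusp10 was highest in cluster 3 (19.1 RPKM, lowest 3.67 in cluster 2) and Dusp5 in cluster 2 (99.8 RPKM, lowest 23.1 in cluster 3). Dusp5 was lower still in the input, at 13.9 RPKM. Zfp36l1 ranged from 22.1 RPKM in cluster 6 to 82.3 in cluster 4.

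The 18 genes listed as bZIP partners are bZIP factors, many but not all of which can pair with Fos, Jun or Atf3 proteins. They had medians of 0.34, 0.06, -0.01, 0.44, -0.55, -0.44 and 0.10 for clusters 1 to 7. Jdp2 and Mafk were past 2-fold higher in cluster 4 and Crem in cluster 7, and Jdp2, Maf and Ddit3 were among those lower in cluster 6, and Jdp2 was lower in cluster 2. Batf3 and Batf were past 2-fold higher in cluster 2, with 22.3 RPKM of Batf3 against 0.508 in cluster 3 and 23.8 RPKM of Batf against 5.23 in cluster 1. Batf3 was higher in cluster 6 as well, and Batf was lower in cluster 1. With TMM, Jdp2 was no longer past 2-fold in cluster 4, nor were Jdp2, Maf and Ddit3 in cluster 6, while Ddit3 was lower in cluster 2. Atf7 had a count of 0 in clusters 2 to 5 and Batf2 in cluster 5, which allows at most 0.145 RPKM of either. Among the 21 upstream kinases and factors, few were past 2-fold, and Rps6ka1 alone was past 2-fold higher in a sorted library, cluster 7 (19.1 RPKM, lowest 4.26 in cluster 3). Mapk14, which encodes a p38 kinase, ranged from 6.56 RPKM in cluster 5 to 20.9 in cluster 7. The median of this list lay between -0.57 in cluster 5 and 0.23 in cluster 7 among the sorted libraries, and was 0.45 in the input.

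Of 15 early targets of NF-kB, another factor that responds without new protein synthesis, 7 were past 2-fold lower in cluster 5, 7 in cluster 6 and 4 in cluster 2, and 2 were higher in each of clusters 1, 3, 4 and 7. With TMM, 1 was lower in cluster 5 (Nfkb2), 6 in cluster 6 and 5 in cluster 2, and 1 was higher in each of clusters 1 and 7 (Ccl2 and Il6, in that order). Their medians were 0.69, -0.78, 0.21, 0.62, -0.87, -0.78 and 0.46 for clusters 1 to 7 with total counts. The median log2 range of the 15 was 1.75, near the 1.81 of the members. The 3 with the widest range were far above it: the chemokine gene Ccl2 ranged from 5.66 RPKM in cluster 6 to 1264 in cluster 3, Cxcl1 from 28.4 in cluster 6 to 1106 in cluster 3, and Il6 from 5.05 in cluster 6 to 189.5 in cluster 4. The 13 heat shock genes had medians of 0.33, -0.30, 0.14, 0.31, -0.44, -0.75 and 0.24 for clusters 1 to 7. Hspa1a was past 2-fold higher in cluster 3 (227 RPKM) and lowest in cluster 2 (52.9), as was Hspa1b, its near-identical copy (272 and 73.4), and how the counting split their shared reads is not given in the sources used here. Bag3 was higher in cluster 1 and Hspe1 in cluster 2, while Hspa1b and Hspa8 were lower in cluster 2, Hspb1 and Dnajb1 in cluster 5, and Hsp90aa1 and Hsp90ab1 in cluster 6. With TMM, Hspa1a and Hspa1b were both lower in cluster 2, and Bag3, Hspb1, Dnajb1 and Hsp90ab1 were no longer past 2-fold, nor was Hspa1b in cluster 3. Hsp90aa1 ranged from 64.0 RPKM in cluster 6 to 224 in cluster 5.

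Of 11 reference genes, none was past 2-fold lower in a sorted library, and Rplp0 and Pgk1 were higher in cluster 2 (Pgk1 alone with TMM). Over the sorted libraries, Pgk1 ranged from 23.8 RPKM in cluster 5 to 106 in cluster 2, B2m from 342 in cluster 2 to 955 in cluster 7 and Ppia from 113 in cluster 5 to 301 in cluster 2. B2m stood at 1131 RPKM in the input. Their median difference was -0.68 in cluster 5 with total counts, against -1.10 for the 10 members, and -0.33 with TMM, against -0.71. In cluster 2, where the members stood at -0.71, the reference genes stood at 0.06. In the input, 9.68% of all genes were past 2-fold lower with TMM. The numbers lower were 8 of the 18 bZIP partners, 2 of the 21 upstream kinases and factors, 3 of the 13 heat shock genes, 1 of the 15 NF-kB targets and 1 of the 11 reference genes. None of these lists had a higher call, against 24.6% of all genes. With total counts, in the same order, 2, 1, 0, 0 and 0 were lower, against 2.89% of all genes. The numbers higher were 2, 4, 1, 2 and 2, against 43% of all genes.

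**Figure D5:**
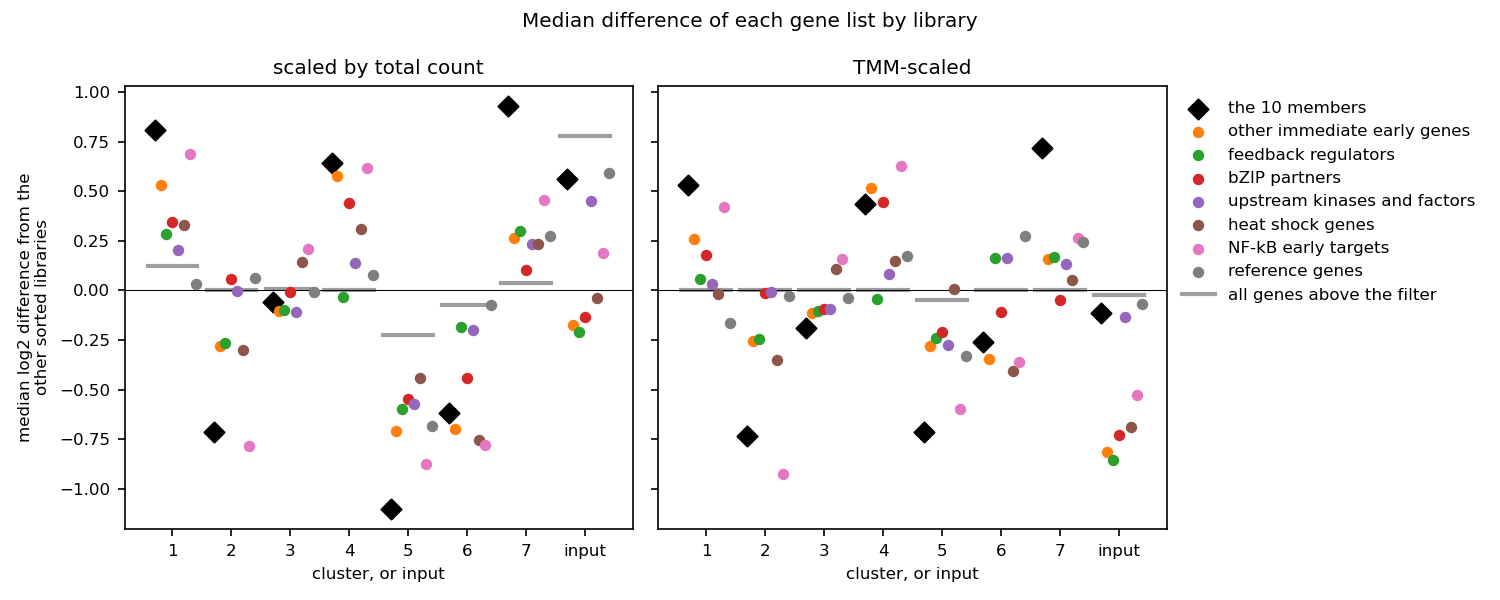
Median difference of log2(RPKM + 1) from the other sorted libraries for the 10 members (black diamonds) and 7 other gene lists (coloured points) in each library, with the median of all genes above the filter as grey bars, scaled by total count (left) and by TMM (right). In cluster 2 the members (-0.71) and the NF-kB targets (-0.78) lie below the other lists, and in cluster 7 the members (0.93) lie above them.

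Markers of other cell types were present in these libraries and differed between them. Stromal markers were found in all of them: the summed level of 8 genes, led by Col1a1, ranged from 4612 RPKM in cluster 4 to 22067 in cluster 6 and was 2069 in the input. This sum was set by Col1a1 (1962 RPKM in cluster 4, 15952 in cluster 6) and Col1a2 (1998 and 6087), whereas the other 6 markers were each lower in cluster 6 than in cluster 4, as with Cxcl12 (139 and 5.04). Ly6a, the gene of Sca-1, stood at 4.98 RPKM in cluster 6, which was gated as Sca-1-, and from 78.3 to 931 RPKM in the other sorted libraries. Although CD45+ cells had been gated out, the 8 neutrophil markers, led by S100a9, summed to 14201, 16029, 10893, 17238, 25696, 15298 and 29151 RPKM in clusters 1 to 7 and to 42817 for input. Of these sorted libraries, cluster 7, high for most members, and cluster 5, low for most, had the highest sums. Cluster 5 owed this to S100a8, S100a9 and Camp, since Mpo stood at 67.7 RPKM there and at 394 in cluster 7, and Elane at 130 and 478. The part of these markers in the levels of the members was not tested.

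The 5 erythroid markers, led by Hba-a1, summed to 8216, 7046, 4434, 1216, 43234, 843 and 3723 RPKM in clusters 1 to 7 and to 383 in the input, with cluster 5 far above the rest. The 4 smooth muscle and pericyte markers, led by Acta2, summed to 84.5, 34.6, 28.7, 46.2, 22.1, 7.29 and 93.6 RPKM in clusters 1 to 7 and to 23.5 in the input. The sum was highest in clusters 7, 1 and 4, as was Fos, through Acta2 (84.7, 61.7 and 39.8 RPKM there). Rgs5 was instead highest in cluster 3 (16.5 RPKM) and stood at 2.52 RPKM in cluster 4. The part of these markers in the levels of the members was not tested. The 5 macrophage markers, led by Cd68, summed to 21.5, 18.1, 15.1, 29.8, 29.4, 26.7 and 75.0 RPKM in clusters 1 to 7 and to 89.3 in the input, also highest in cluster 7 among the sorted libraries.

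The sum of the 4 leukocyte markers, led by Coro1a, lay between 87.4 RPKM in cluster 3 and 381 in cluster 7 and was 572 in the input, with Ptprc, the gene of CD45, between 1.69 and 9.26 RPKM in the sorted libraries. That of the 5 B cell markers, led by Cd79b, lay between 32.5 RPKM in cluster 3 and 109.6 in cluster 7 and was 257 in the input. The 6 endothelial markers, led by Pecam1, the gene of CD31, summed to at most 11.8 RPKM in a sorted library (cluster 1), and to 14.9 in the input. Megakaryocyte markers, 4 genes led by Pf4, summed from 5.34 RPKM in cluster 6 to 77.0 in cluster 3. Only Gp9 in cluster 2 had a count of 0 among all markers, which allows up to 0.134 RPKM by a limit of 3 counts.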

How the data were processed

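The tables the authors deposited hold unnormalized counts of reads on each Ensembl gene, beside its exons and its exon length in GRCm38 coordinates. The study's methods and the submitters' processing notes name TopHat2 with mm9 and Partek 2.2. The counting tool, its use of strand and its treatment of reads shared between genes are not given in the sources used here. Symbols were matched through a table of gene names, which covers 32464 of the 49315 genes. The gene lists and markers held 2 further symbols without a match.

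RPKM was computed from the counts, the exon length and the total count on genes, and used as log2(RPKM + 1). A library was called past 2-fold when it differed by more than 1 on this scale from the median of the other sorted libraries. Genes with RPKM above 2 in at least 1 library served as background. With 1 library per group, edgeR and DESeq2 gave scaling factors only, and no p-value is given. The members and lists were chosen with earlier results of these data known. The genes named are the 10 members, in each list the 3 genes with the largest ratio of highest to lowest RPKM + 1 among those with at least 50 counts, in each marker list the most abundant gene and those at 0, and the genes of highest correlation. Single values of some genes that this rule names are not reported here. Genes named only because they were past 2-fold in a list, and the ranks, ratios to Fos and the 3 highest libraries, were chosen after the values were seen. Of the calculations, only the calls past 2-fold higher were tested on simulated counts, with genes raised in cluster 3. The simulated libraries otherwise shared 1 composition, unlike the data, and the other calculations were not tested in this way. Alternatives comprised TMM factors, DESeq2 size factors, other totals, a pseudocount of 0.1, equal depth, omission of cluster 5 and folds of 1.5 and 4. The tools were edgeR 4.0.16 and DESeq2 1.42.0 in R 4.3.3, and pandas 2.3.3, numpy 2.4.6, scipy 1.17.1 and matplotlib 3.10.9 in Python 3.11.15.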

Additional observations from a re-analysis of the deposited data

How the results depend on the processing

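No paired analysis was possible because there was a single library per group, and leaving out a replicate was not possible either. The limits are those of 1 library per population: differences in level between libraries include all that differed between the preparations, and the composition of clusters 5 and 2 bears on levels scaled by the total count. Depth was no limit for the members, whose lowest count was 495. Of 995 values recomputed under an alternative, 699 stayed close and 296 moved further. Close means within 1.5 times for numbers of genes and within counting error for all other values. A change of sign was looked for only in the medians of the members, since numbers, shares and ratios have none. The median past 2-fold, that of cluster 5, kept its sign. That of the input, which was not past 2-fold, changed sign with TMM and with DESeq2 size factors. The cause of these shifts was not tested, except where an alternative changes the total or the fold itself. The number of members with a range above 2-fold was 10 with TMM, a pseudocount of 0.1 and equal depth, and 9 with DESeq2 size factors, without cluster 5, and without the mitochondrial, haemoglobin and 3 abundant loci (Rn18s-rs5, Lars2 and mmu-mir-689-2) in the total. The percentages in brackets below are the shares of all genes called under the same setting. Over all genes and the 7 sorted libraries together, 3.69% of the differences were past 2-fold higher and 3.41% lower.

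With TMM, the members past 2-fold became 0 higher in cluster 1 (2.61%), 2 lower in cluster 5 (3.43%), 0 lower in cluster 6 (5.33%), 1 higher in cluster 7 (3.63%), and 0 higher (24.6%) and 2 lower (9.68%) in the input. The median of the members became 0.53, -0.19, 0.43, -0.71, -0.26 and 0.72 in clusters 1, 3, 4, 5, 6 and 7, and turned from 0.56 to -0.11 in the input. Over the 7 sorted libraries, where the shares of all genes became 4.26% higher and 2.98% lower, calls became 19 higher (from 29) and 15 lower (from 29) for the other immediate early genes, 0 lower (from 3) for the feedback regulators, 0 lower (from 1) for the upstream kinases and factors, 2 higher (from 4) for the heat shock genes and 1 higher (from 2) for the reference genes.

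With DESeq2 size factors, the members past 2-fold became 0 higher in cluster 1 (2.35%), 1 lower in cluster 5 (2.7%), 0 lower in cluster 6 (5.25%), 1 higher in cluster 7 (3.17%), and 0 higher (24.9%) and 2 lower (9.26%) in the input. The medians became 0.49, -0.18, 0.42, -0.64, -0.24 and 0.66 in clusters 1, 3, 4, 5, 6 and 7, and -0.10 in the input. The shares of all genes became 4.27% higher and 2.89% lower, and calls became 13 higher and 14 lower for the other immediate early genes, 0 lower for the feedback regulators, 3 lower (from 6) for the bZIP partners, 0 lower for the upstream kinases and factors, 2 higher for the heat shock genes, 10 lower (from 18) for the NF-kB targets and 1 higher for the reference genes.

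Without the mitochondrial, haemoglobin and 3 abundant loci in the total, the members past 2-fold became 0 higher in cluster 1 (2.77%), 1 lower in cluster 2 (2.81%), 1 lower in cluster 3 (2.71%) and 0 lower in cluster 5 (1.37%), where there had been 7. The medians became -0.56, -0.14, 0.42, -0.35, -0.69 and 0.81 in clusters 2 to 7 and 0.35 in the input. The shares of all genes became 3.97% higher and 2.93% lower, and calls became 9 higher and 18 lower for the other immediate early genes, 3 higher (from 6) for the feedback regulators, 0 lower for the upstream kinases and factors, 10 lower (from 6) for the heat shock genes, 5 higher (from 8) and 11 lower for the NF-kB targets and 1 higher for the reference genes. With the 3 loci alone left out, an alternative chosen after seeing the data, the medians became -0.57, 0.47 and -0.53 in clusters 2, 4 and 5 and 0.44 in the input.

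Without the cluster 5 library, the members past 2-fold became 1 higher in cluster 1 (3.42%), 2 lower in cluster 3 (2.94%), 4 lower in cluster 6 (7.93%) and 1 higher in cluster 7 (3.81%). The medians became 0.75, -0.98, -0.37, 0.44, -0.77 and 0.71 in clusters 1, 2, 3, 4, 6 and 7 and 0.29 in the input. The shares of all genes became 3.48% higher and 3.24% lower, and calls became 16 higher for the other immediate early genes, 7 lower for the feedback regulators, 0 lower for the upstream kinases and factors and 1 higher for the reference genes. A fold of 1.5 gave 9 members higher in cluster 1 (12.8%), 1 higher (13.1%) and 6 lower (9.18%) in cluster 2, 1 higher (7.05%) and 1 lower (5.73%) in cluster 3, 6 higher in cluster 4 (8.37%), 5 lower in cluster 6 (17.5%), 7 higher in cluster 7 (12.8%) and 5 higher in the input (57.1%). A fold of 4 left 0 members in either direction in any library (0.141% to 1.28% of genes in the clusters, and 18.5% higher and 0.482% lower in the input). A pseudocount of 0.1 gave 5 lower calls for the upstream kinases and factors (from 1) with 8.47% of all genes lower, and equal depth gave 1 higher call for the reference genes (from 2) with 3.91% of all genes higher. Of the 10 genes most like the members, 1 was among the first 10 with TMM, 5 with the input included, 0 without cluster 5 and 0 with Spearman's rho, where 26 genes tied at a rho of 1.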
